A study of Glycine max with 6 samples.

Results

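Gibberellins and brassinosteroids are growth hormones of plants, and their genes were followed in soybean leaves under saline-alkaline stress with and without a spray of mesoporous silica nanoparticles (MSN, porous particles of silicon dioxide). Genes were taken where the deposited table assigned a gibberellin term (signalling, response, biosynthesis, or the KEGG map of diterpenoid biosynthesis) or a brassinosteroid term (signalling, biosynthesis, homeostasis, or the KEGG map of brassinosteroid biosynthesis). Genes that also carried signalling terms of abscisic acid, auxin or ethylene were to be dropped, which removed 0 genes, and a sum of at least 60 counts over the 6 libraries was required. The terms matched 91 gibberellin and 84 brassinosteroid genes, of which 23 and 10 fell below that sum. This left 68 gibberellin genes and 74 brassinosteroid genes, with 2 genes in both, so 140 genes of the 45967 in the table. The lowest sum among them was 75 counts, and the highest sum among the genes left out was 59.

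All plants were the cultivar HN95 with the genotype given as WT, grown in pots with 20 kg of soil and 3 L of saline-alkaline liquid that held sodium chloride and sodium carbonate at 40 mM each, with sodium bicarbonate and sodium sulfate at 320 mM each. The control group (3 libraries) had this stress alone, and the sources used here do not say whether its leaves received a mock spray. The MSN group (3 libraries) had the stress and a leaf spray of 20 mg/L MSN, and leaves were taken 7 days after it. In the treatment tags of the 3 MSN libraries the dose is 20, 21 and 22 mg/L in turn, and no group without stress was analysed here. The sources used here give neither plant age nor whether each library had its own plant, so a p-value covers the spread among these libraries only.

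Gibberellins are diterpenoids. Terpene synthases close the carbon skeleton to ent-kaurene, the cytochrome P450 enzymes ent-kaurene oxidase and ent-kaurenoic acid oxidase oxidise it, 20-oxidases and 3-oxidases finish the active hormone, and 2-oxidases inactivate it. The active hormone binds a soluble receptor, which brings DELLA repressor proteins to an SCF ubiquitin ligase for breakdown, and growth genes are released. Brassinosteroids are steroid hormones made from plant sterols by reductases and P450 enzymes. They are sensed at the cell surface by a receptor kinase, which acts through cytoplasmic kinases and phosphatases on transcription factors of growth genes. Both hormones promote cell elongation in shoots and leaves.

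The libraries held 63981150 to 67923813 counts. Over all genes 59.3% of 39203 passed the test (edgeR's quasi-likelihood test, Benjamini-Hochberg adjusted p under 0.05), 29.6% higher and 29.7% lower in MSN, so a gene that passed was common. A log2 fold change of at least 1 in size as well was seen in 16.3% of genes, 9.27% higher and 7.01% lower. As markers of leaf tissue, the photosynthetic light-harvesting genes had a summed level of 6535 to 6851 CPM (counts scaled to a common library total) in control and 9138 to 9585 CPM in MSN, with 32 of 39 higher and 2 lower. Vascular (phloem and xylem) genes had 21 of 40 tested genes higher and 2 lower, and their summed level was 214 to 221 CPM in control and 297 to 322 CPM in MSN. Guard cell genes had 4 of 16 tested genes higher and 1 lower, with sums of 69.7 to 78.1 CPM in control and 63.7 to 66.4 CPM in MSN. Seed storage terms had 14 higher and 12 lower of 48 tested genes, with sums of 1609 to 1672 and 2849 to 2977 CPM. Nodule genes had 2 higher and 1 lower of 7 tested genes, with sums of 146 to 153 and 155 to 163 CPM. The part these shifts have in the hormone results was not tested. In whole leaves, fewer cells of a type and less RNA per cell cannot be told apart.

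Genes of gibberellin synthesis and breakdown held the highest share of large changes among the 4 classes of hormone genes, a difference between classes that was not tested. In MSN the 20-oxidases and an ent-kaurene oxidase were higher, and the 2-oxidases and an ent-kaurenoic acid oxidase were lower. Of 26 genes in the class, 11 rose, 10 fell and 5 did not pass, and 17 of them (65.4%) passed with a log2 fold change of at least 1 in size, against 16.3% of all genes tested. Most were weakly expressed, with a median of 1.07 FPKM (fragments divided by gene length and by the library total), and large changes were more frequent among low genes. Of all tested genes under 5 FPKM 22.5% had one, against 14 of 23 (60.9%) in the class. The 2 groups did not overlap in 21 of the 26 genes, and over all genes this held for 65% of those tested. A gene that is low in 1 group and reaches a sum of 60 counts through the other had to differ. This held for 9 of the 140 genes, 6 of which passed the test, and for 4 of the 26 genes of the class, 3 of which passed. The shares thus describe the measured genes and not every gene of the pathway, and support nothing by themselves.

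**Figure D1:**
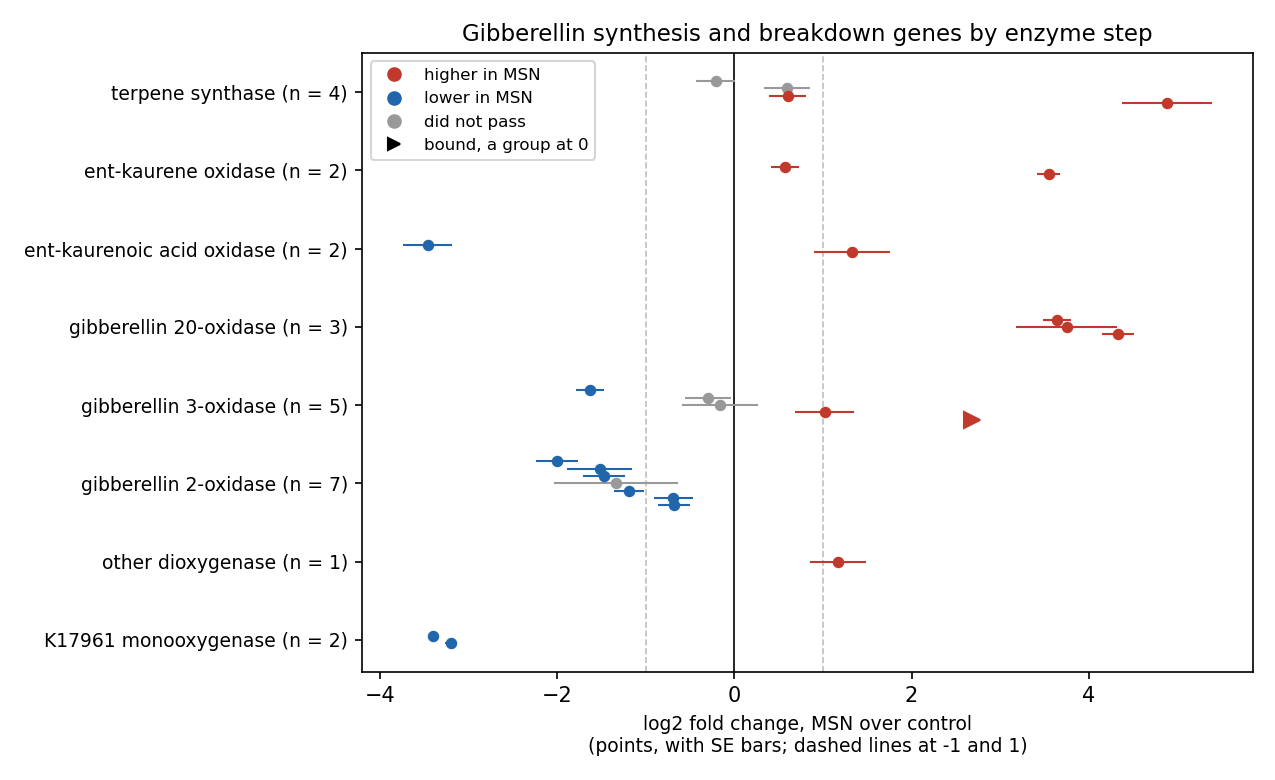
Log2 fold change (MSN over control) of each gibberellin synthesis and breakdown gene, by enzyme step, with standard error bars. The triangle is the lower bound of a gene with 0 counts in control, all 3 20-oxidases lie above 3, and all 7 2-oxidases lie below 0. Among the 20-oxidases and among the 2-oxidases, a gene reached the required sum only through its higher group.

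Of the 3 measured 20-oxidase genes 2 rose, and the third was counted at all only because of its MSN level. By comparison, 29.6% of all genes tested rose. These enzymes oxidise the gibberellin skeleton in several steps late in the pathway. GLYMA_09G149200 (chromosome 9, 36886005 to 36888169) stood at 0.477, 0.336 and 0.44 CPM in the control libraries and at 8.72, 7.94 and 8.66 CPM in the MSN libraries. Every MSN library was far above every control library, a 20.2-fold rise (log2 fold change 4.33 ± 0.18 SE, edgeR adjusted p = 2.38e-13). GLYMA_13G035600 (chromosome 13, 11001263 to 11004901) stood at 0.785, 0.673 and 0.774 CPM in control and at 8.66, 10.6 and 8.57 CPM in MSN. Here too the groups did not overlap, and the rise was 12.5-fold (log2 fold change 3.64 ± 0.16, adjusted p = 8.74e-13). GLYMA_16G200800 (chromosome 16, 36219135 to 36220500) was nearly silent in control, at 0, 0.0731 and 0.273 CPM, and stood at 1.63, 1.43 and 1.68 CPM in MSN. With 23 control and 310 MSN counts it reached the required sum only through MSN, so these values are a description with no test. Another 6 genes annotated as 20-oxidases had sums of 4 to 49 counts and were not tested. One of them, GLYMA_04G211100, singled out after its values were seen, had 33, 12 and 4 counts in control and 0 in each MSN library, which is lower in MSN.

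The 2-oxidases, which add a hydroxyl group that inactivates gibberellins, moved the other way. Of 7 genes 6 fell and 1 did not pass, with log2 fold changes from -2.00 to -0.68 and a median of -1.34. By comparison, 29.7% of all genes tested fell. GLYMA_13G259400 stood at 4.08, 4.12 and 3.86 CPM in control and at 1.46, 0.618 and 0.942 CPM in MSN. All control libraries were above all MSN libraries (log2 fold change -2.00 ± 0.24, adjusted p = 7.76e-07). GLYMA_15G248400, the 2-oxidase with the highest level per length in control (3.28 FPKM), stood at 4.43, 5.28 and 5.6 CPM in control and at 1.97, 2 and 2.73 CPM in MSN (log2 fold change -1.19 ± 0.17, adjusted p = 6.93e-06). Again no MSN library reached a control library. GLYMA_13G259500, the neighbour of GLYMA_13G259400 on chromosome 13, did not pass (log2 fold change -1.34 ± 0.70, adjusted p = 0.113), with overlapping groups. With 60 control and 23 MSN counts it reached the required sum only through control, so its sign is no support. Among the 10 genes with a gibberellin catabolism term, 7 were tested and 5 of them fell. The 3 genes of that term that were not tested had sums of 4 to 9 counts.

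Summed by step on the FPKM scale, the 20-oxidases held 0.641, 0.589 and 0.879 FPKM in control and 10.7, 11.1 and 10.5 FPKM in MSN. The 2-oxidases held 11.8, 11.6 and 12.9 FPKM in control and 5.43, 4.72 and 5.63 FPKM in MSN. The 20-oxidase sum was thus the smaller of the pair in every control library, at 0.0545, 0.0506 and 0.068 of the 2-oxidase sum, and the larger in every MSN library, at 1.97, 2.35 and 1.87 of it. These sums are transcript levels and carry no test, and the ratio was computed after the single genes had been seen. The count minimum widens the contrast, since each sum holds a gene that reached it only through its higher group. Over all 9 annotated 20-oxidases the sum was 1, 0.777 and 1.02 FPKM in control and 10.7, 11.3 and 10.7 FPKM in MSN.

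**Figure D2:**
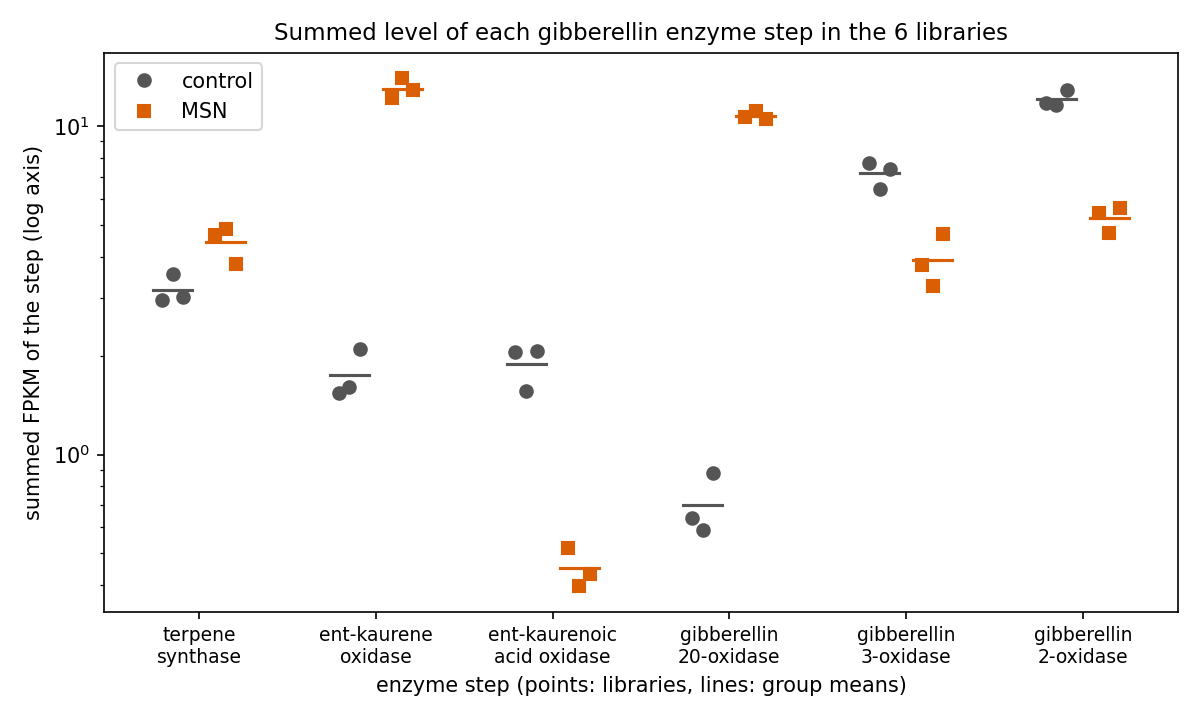
Summed FPKM (log axis) of the genes of each gibberellin enzyme step in the 6 libraries, with points for libraries and lines for group means. MSN libraries lie above control for terpene synthases, 20-oxidases and ent-kaurene oxidases, and below it for ent-kaurenoic acid oxidases, 3-oxidases and 2-oxidases. The sums of terpene synthases, 20-oxidases, 3-oxidases and 2-oxidases each hold a gene that reached the required count sum only through its higher group.

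Upstream of the oxidases, the ent-kaurene oxidase GLYMA_15G002200 (chromosome 15, 220497 to 223162) stood at 2.22, 1.83 and 2.99 CPM in control and at 25.6, 29.8 and 27 CPM in MSN. The MSN libraries were all about an order of magnitude above the control libraries (log2 fold change 3.55 ± 0.13, adjusted p = 2.94e-14). The second gene of the step, GLYMA_13G371400, rose by less (log2 fold change 0.57 ± 0.16, adjusted p = 0.00521). The next step went in the opposite direction. The ent-kaurenoic acid oxidase GLYMA_15G135200 (chromosome 15, 10854612 to 10861709) stood at 4.63, 3.48 and 4.74 CPM in control and at 0.522, 0.177 and 0.471 CPM in MSN. Its groups were far apart (log2 fold change -3.46 ± 0.28, adjusted p = 4.73e-09). The other gene of this step, GLYMA_09G029400, had 0.308, 0.263 and 0.273 CPM in control and 0.737, 0.795 and 0.596 CPM in MSN, a rise from a low level (log2 fold change 1.33 ± 0.43, adjusted p = 0.013). That call was lost without MSN replicate 2 (log2 fold change 1.24, adjusted p = 0.0517). The summed level of the step was 2.05, 1.56 and 2.07 FPKM in control and 0.52, 0.397 and 0.433 FPKM in MSN. These 2 genes also carry brassinosteroid terms and are the 2 genes shared by both lists.

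The 3-oxidases, which make the active hormone, were mixed. Of 5 genes 2 were higher in MSN, 1 fell and 2 did not pass, and over all genes 59.3% passed. The gene with the highest level in control, GLYMA_13G361700 (chromosome 13, 44856120 to 44858325), stood at 10.7, 8.77 and 11.9 CPM in control and at 3.45, 2.65 and 3.99 CPM in MSN, with no overlap (log2 fold change -1.63 ± 0.16, adjusted p = 4.43e-08). GLYMA_08G208300 rose from a low level (log2 fold change 1.02 ± 0.33, adjusted p = 0.0124). GLYMA_15G012100 had 0 counts in every control library and 76 counts over the MSN libraries, at least 6.41-fold higher. It reached the required sum only through MSN and had to differ, so it is described with no test. The 3-oxidase sum was 7.73, 6.45 and 7.39 FPKM in control and 3.79, 3.27 and 4.7 FPKM in MSN.

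Among 4 genes with a terpene synthase term, 2 were higher in MSN and 2 did not pass, and over all genes 59.3% passed. GLYMA_19G157000 had 12 counts over the control libraries and 359 over the MSN libraries. That is a ratio of 30.4 (exact binomial 95% interval 10.1 to 150, counting error only). This gene reached the required sum only through MSN and had to differ, so its values are a description with no test. Its neighbour by number, GLYMA_19G156800, rose by 0.60 ± 0.21 on the log2 scale (adjusted p = 0.0206). The gene that KEGG assigns to ent-kaurene synthase itself, GLYMA_08G163900, had 1.18, 1.11 and 0.774 CPM in control and 1.57, 1.77 and 1.29 CPM in MSN. Its groups did not overlap, and the difference missed the threshold (log2 fold change 0.59 ± 0.26, adjusted p = 0.0607). A dioxygenase with a gibberellin synthesis term and no step, GLYMA_03G009600, rose with overlapping groups (log2 fold change 1.17 ± 0.32, adjusted p = 0.00432).

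The most abundant genes of the class by FPKM have no gibberellin step in their annotation. GLYMA_16G089700 and GLYMA_16G089900, on chromosome 16 at 12043399 to 12046785 and 12247363 to 12250658, entered through the KEGG diterpenoid map. Their KEGG entry carries the enzyme numbers of a P450 that makes volatile homoterpenes. GLYMA_16G089700 fell from 414, 376 and 399 CPM in control to 35.2, 37 and 40.2 CPM in MSN (log2 fold change -3.40 ± 0.05, adjusted p = 2.14e-19). GLYMA_16G089900 fell alongside, from 84.7, 75.8 and 76.4 CPM to 8.11, 8.67 and 8.98 CPM (log2 fold change -3.20 ± 0.06, adjusted p = 1.03e-17). The pair held 25 to 26.6% of the summed CPM of all 68 gibberellin genes in control and 3.52 to 3.92% in MSN. Without the pair, 11 of 24 synthesis and breakdown genes rose and 8 fell, and the median log2 fold change of the class turned from -0.18 to 0.21, so that median has no direction of its own.

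Perception was measured by 5 genes annotated to gibberellin binding, the property of the receptor. None of them carries a term of the membership rule, so they stand beside the list. Of these 5 genes 4 fell and 1 rose, with a median log2 fold change of -0.80. The most abundant of them, GLYMA_03G148300, stood at 246, 236 and 245 CPM in control and at 81.6, 81.8 and 79.3 CPM in MSN (log2 fold change -1.58 ± 0.04, adjusted p = 1.12e-16). GLYMA_02G151100 fell by 0.82 ± 0.07 on the log2 scale, GLYMA_10G022900 by 0.80 ± 0.05 and GLYMA_20G230600 by 0.49 ± 0.13. GLYMA_10G158000 rose by 0.37 ± 0.06, from 24.2, 25.4 and 26.3 CPM to 33.9, 31.5 and 32.7 CPM. In all 5 genes the groups did not overlap, which held for 65% of all genes tested, and 29.7% of all genes tested fell. Summed, they held 150 to 153 FPKM in control and 68.2 to 71.5 FPKM in MSN.

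**Figure D3:**
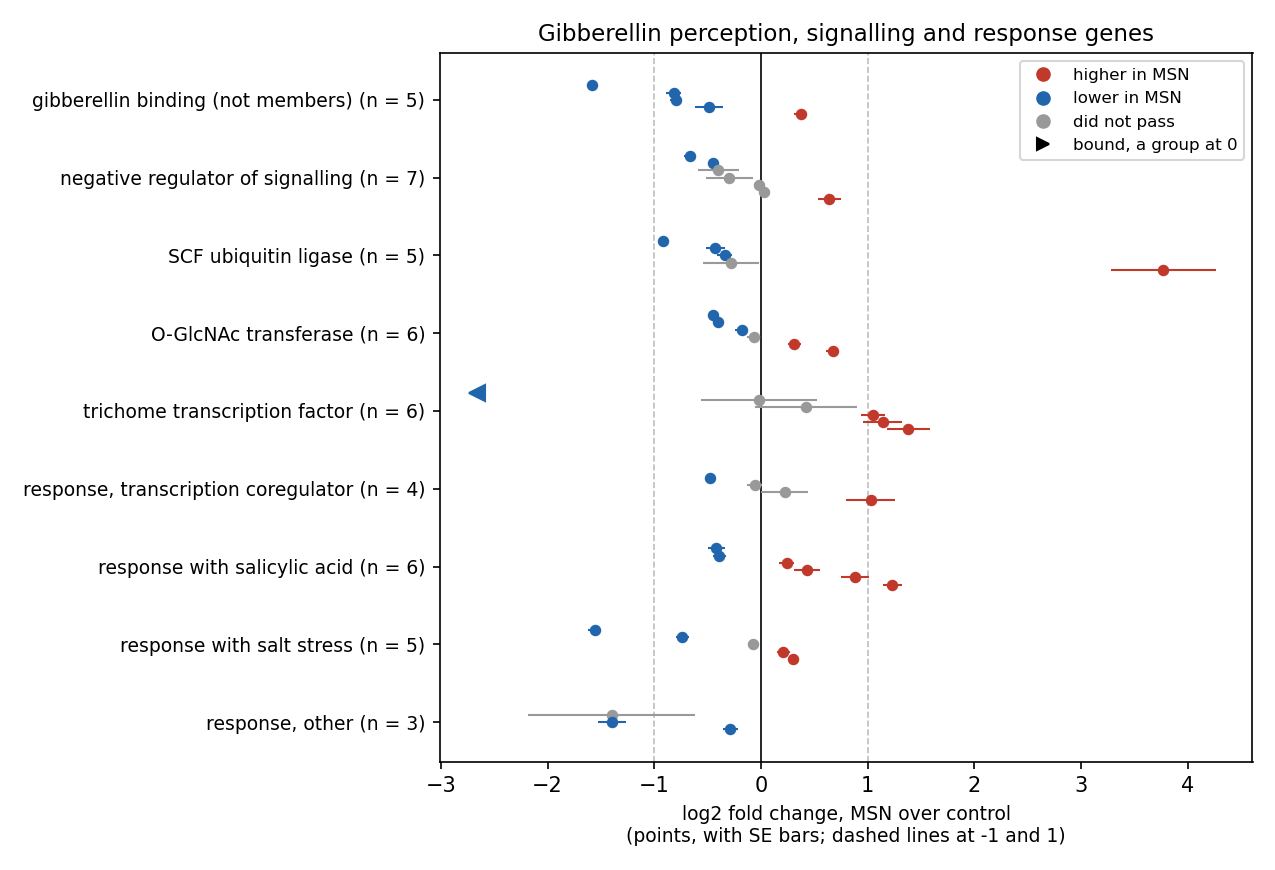
Log2 fold change (MSN over control) of gibberellin binding genes and of each gibberellin signalling and response gene, by annotated role, with standard error bars. Most points lie between -1 and 1, 4 of the 5 binding genes lie below 0, and the triangle is the bound of a gene with 0 counts in MSN.

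The 42 genes of gibberellin signalling and response changed by smaller amounts than the enzymes. In this class 14 rose, 16 fell and 12 did not pass, and 9 (21.4%) passed with a log2 fold change of at least 1 in size, near the 16.3% of all genes. Those 9 include GLYMA_14G009000 and GLYMA_08G366900, which reached the required sum only through their higher group and had to differ. The 7 negative regulators of the pathway, transcription factors with terms of seed germination and salinity response, included 2 that fell, 1 that rose and 4 that did not pass. GLYMA_08G095800 stood at 67.1, 68.5 and 66.7 CPM in control and at 39.8, 45.2 and 42.2 CPM in MSN, all MSN libraries lower (log2 fold change -0.67 ± 0.05, adjusted p = 1.57e-09). GLYMA_05G140400 fell by 0.45 ± 0.05 on the log2 scale and GLYMA_06G213100 rose by 0.64 ± 0.11. The regulator with the highest FPKM, GLYMA_11G216500, had a log2 fold change of -0.02 ± 0.05 (adjusted p = 0.776). Summed, the regulators held 84.3, 82.8 and 84.3 FPKM in control and 70.8, 75.1 and 73.5 FPKM in MSN. A list of 15 genes with any term of regulation of gibberellin signalling holds all 5 binding genes and all 7 regulators given here. Its only fall beyond them was GLYMA_01G176600 (log2 fold change -0.53 ± 0.04, adjusted p = 8.5e-09).

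The SCF ubiquitin ligase is the complex that marks repressor proteins for breakdown. Of its 5 genes 3 fell, 1 did not pass and 1 was higher in MSN, while 29.7% of all genes tested fell and 29.6% rose. GLYMA_06G043400, the most abundant by FPKM, stood at 43.2, 42.3 and 43.9 CPM in control and at 22, 23.1 and 23.2 CPM in MSN, well apart (log2 fold change -0.92 ± 0.05, adjusted p = 3.47e-11). GLYMA_14G009000, singled out after its values were seen, stood at 0.0462, 0.175 and 0.0607 CPM in control and at 0.983, 1.16 and 1.81 CPM in MSN. With 19 control and 258 MSN counts it reached the required sum only through MSN, so it is described with no test. The 6 O-linked N-acetylglucosamine transferases belong to the enzyme family of SPINDLY, which in Arabidopsis restrains gibberellin signalling. Among them 3 fell, 2 rose and 1 did not pass. GLYMA_20G221000, at 226, 228 and 217 CPM in control and 164, 164 and 163 CPM in MSN, fell by 0.45 ± 0.04 on the log2 scale (adjusted p = 2.64e-09), while GLYMA_10G075300 rose by 0.67 ± 0.06 (adjusted p = 2.4e-08).

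Transcription factors annotated to gibberellin and trichome (leaf hair) development included 3 that rose, 1 that was lower in MSN and 2 that did not pass. Their share that passed was 66.7%, against 59.3% of all genes. GLYMA_19G150800 stood at 1.71, 1.2 and 2.05 CPM in control and at 3.42, 4.58 and 4.85 CPM in MSN (log2 fold change 1.38 ± 0.20, adjusted p = 1.18e-05). GLYMA_03G147200 rose by 1.14 ± 0.18 on the log2 scale (adjusted p = 2.67e-05), and GLYMA_09G107400 by 1.05 ± 0.11. In these 3 genes every MSN library was above every control library. GLYMA_08G366900, the lower gene, had 77 counts over the control libraries and 0 in MSN, at least 6.34-fold lower. It reached the required sum only through control and had to differ, so it is described with no test.

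Nuclear DNA-binding proteins that share the gibberellin response with other signals were split by the second signal. For the counts that follow, 29.6% of all genes tested rose and 29.7% fell. Of 6 that also carry a salicylic acid response, 4 rose and 2 fell. GLYMA_17G121000 stood at 8.4, 7.31 and 7.17 CPM in control and at 17.1, 18.3 and 18.3 CPM in MSN, with wide separation (log2 fold change 1.23 ± 0.09, adjusted p = 1.1e-09). Of 5 that also carry a salt stress response, 2 rose, 2 fell and 1 did not pass. GLYMA_15G019400 stood at 38.4, 39.9 and 37.6 CPM in control and at 13.7, 13.4 and 12.2 CPM in MSN, a 2.94-fold fall (log2 fold change -1.56 ± 0.06, adjusted p = 2.41e-13). GLYMA_05G062300, second in FPKM in the class and carrying the same response terms, stood at 77.2, 77.5 and 78.2 CPM in control and at 72.2, 76.4 and 72.1 CPM in MSN. Its groups did not overlap, and the log2 fold change of -0.08 ± 0.04 did not pass (adjusted p = 0.122). Of 4 transcription coregulators 1 rose and 1 fell. Outside these sets, GLYMA_13G246800, annotated to contacts between the endoplasmic reticulum and the plasma membrane, fell from 8.41, 9.1 and 9.32 CPM to 3.42, 3.17 and 3.61 CPM (log2 fold change -1.40 ± 0.13, adjusted p = 2.13e-08).

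Taken by hormone, the 68 gibberellin genes held 25 that rose, 26 that fell and 17 that did not pass, with 15 rises and 11 falls of at least 1 on the log2 scale (38.2%). The 74 brassinosteroid genes held 26 that rose, 25 that fell and 23 that did not pass, with 13 rises and 6 falls of that size (25.7%). The median log2 fold change was -0.12 for gibberellin and 0.02 for brassinosteroid, and it was 0.01 over all genes. Calls of any size were thus near balance between rises and falls for both hormones, as they were over all genes. Calls of at least 1 on the log2 scale held more rises than falls for both hormones, and over all genes these were 9.27% and 7.01%. The gibberellin rises include GLYMA_14G009000, GLYMA_16G200800, GLYMA_15G012100 and GLYMA_19G157000, which reached the required sum only through MSN. GLYMA_08G366900 among the gibberellin falls and GLYMA_01G122300 among the brassinosteroid falls reached it only through control. All of these had to differ, so the excess of gibberellin rises supports nothing by itself. The difference between the hormones was not tested.

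Brassinosteroid synthesis and homeostasis held 36 genes, of which 13 rose, 9 fell and 14 did not pass, and 13 (36.1%) passed with at least 1 on the log2 scale. Over all genes 59.3% passed and 16.3% did so at that size. Those 13 genes include GLYMA_01G122300, which reached the required sum only through control and had to differ. The single gene for sterol delta-7 reductase, which acts on the sterol precursors, was the most abundant of the class at 52.6 FPKM in control and 51 FPKM in MSN. This gene, GLYMA_08G224200, stood at 150, 155 and 159 CPM in control and at 145, 152 and 150 CPM in MSN, with overlap (log2 fold change -0.05 ± 0.04, adjusted p = 0.283). Both steroid 5-alpha reductase genes, which act within the brassinosteroid route proper, did not pass either, with log2 fold changes of 0.11 ± 0.24 and 0.33 ± 0.21. GLYMA_02G051600, which KEGG assigns to a P450 that hydroxylates the brassinosteroid side chain, had a log2 fold change of -0.21 ± 0.13 (adjusted p = 0.185), and GLYMA_08G193900, with a like assignment, one of 0.02 ± 0.49. The reductases and side-chain P450 genes given here were thus without a passing change, whereas the 2 ent-kaurenoic acid oxidases in the class changed as given above. GLYMA_06G215200, a P450 gene on the KEGG map with a brassinosteroid metabolism term, passed as well. It rose from 0.369, 0.175 and 0 CPM to 0.891, 1.09 and 0.659 CPM (log2 fold change 2.27 ± 0.65, adjusted p = 0.00603). GLYMA_07G039800, second in FPKM and a member by the KEGG map with no enzyme entry, fell from 69, 63 and 75.1 CPM to 29.4, 30.3 and 30.3 CPM (log2 fold change -1.20 ± 0.06, adjusted p = 2.62e-12).

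**Figure D4:**
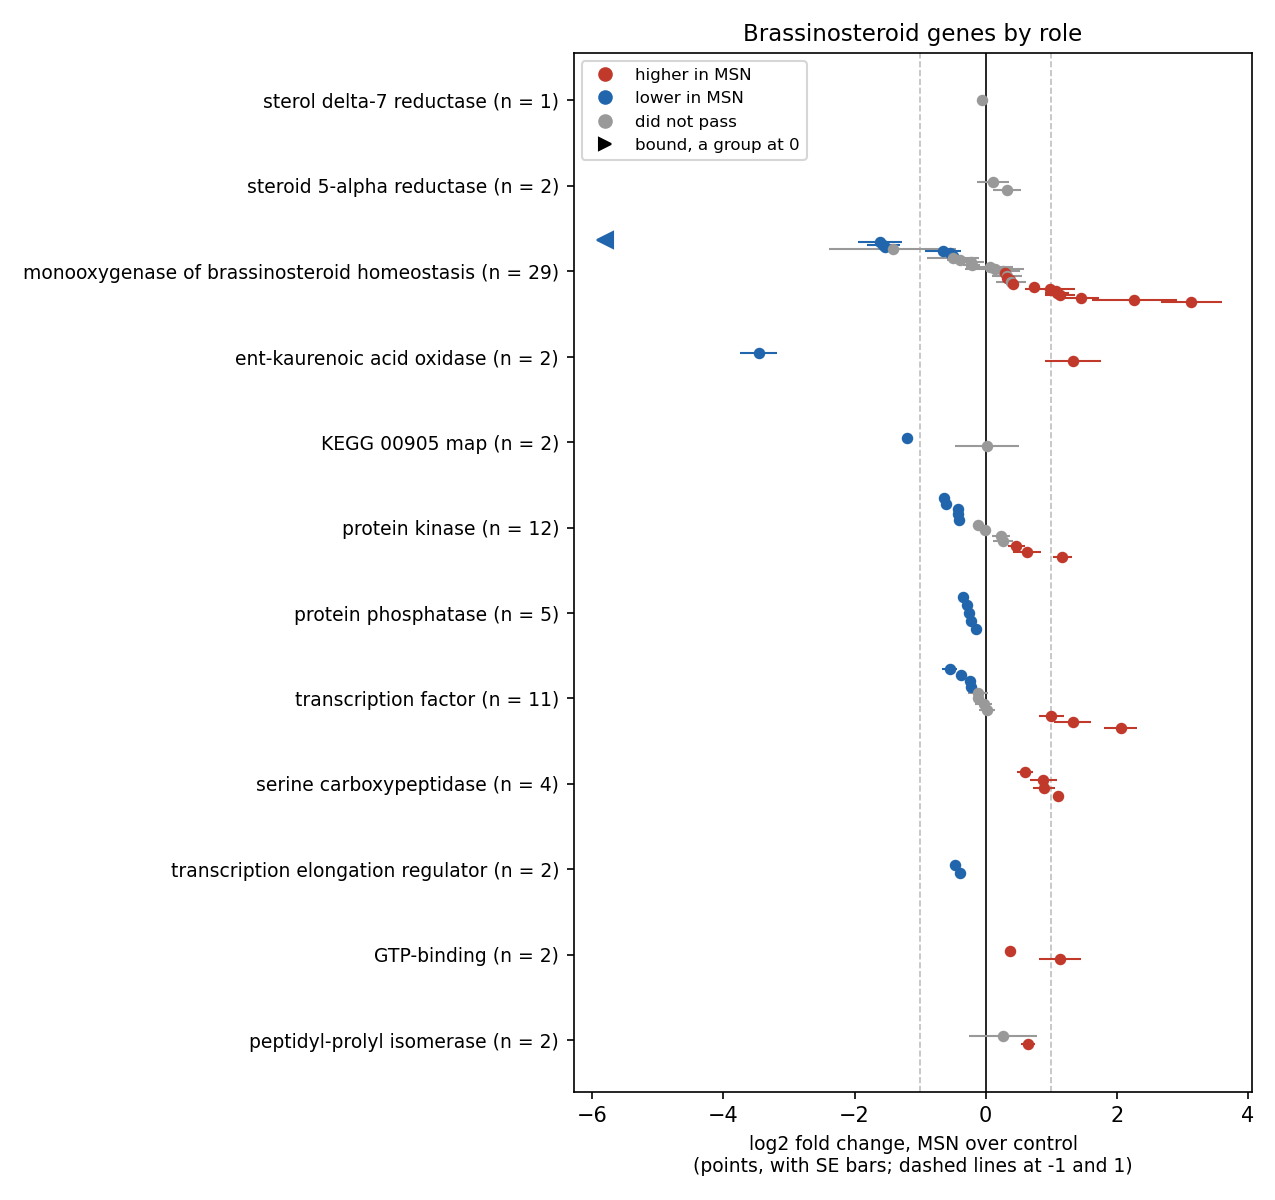
Log2 fold change (MSN over control) of each brassinosteroid gene by annotated role, with standard error bars. All 5 phosphatases lie below 0 and all 4 serine carboxypeptidases above it, while the 29 monooxygenases spread to both sides and the triangle marks the bound of a gene with 0 counts in MSN.

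The remaining 29 genes of the class are P450 monooxygenases annotated to brassinosteroid homeostasis. That term is broad, since the ent-kaurenoic acid oxidases carry it as well, so it does not name a step. Of the 29 genes 12 rose, 7 fell and 10 did not pass, so 65.5% passed, near the 59.3% of all genes. The 13 of them that are also on the KEGG brassinosteroid map had 6 rises and 2 falls (61.5% passed). The 16 with the GO term alone had 6 rises and 5 falls (68.8% passed). GLYMA_01G170000 stood at 0.877, 1.77 and 0.668 CPM in control and at 3.42, 2.53 and 3.11 CPM in MSN, without overlap (log2 fold change 1.45 ± 0.28, adjusted p = 0.000208). GLYMA_19G033900 rose by 1.13 ± 0.23 on the log2 scale, from 1.15, 2.59 and 1.62 CPM to 4.48, 3.9 and 3.37 CPM (adjusted p = 0.000365). GLYMA_08G125100 stood at 2.17, 1.61 and 1.5 CPM in control and at 3.72, 3.48 and 4.07 CPM in MSN (log2 fold change 1.09 ± 0.18, adjusted p = 4.7e-05). It lies beside GLYMA_08G125000 on chromosome 8, which had a nearly equal change at a higher level, from 24.1, 23.8 and 25 CPM to 51.1, 50.9 and 50.6 CPM (log2 fold change 1.07 ± 0.05, adjusted p = 1.7e-12). The sources used here do not say how reads that match both neighbours were counted.

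The falls among these monooxygenases included a gene that was not detected after MSN. GLYMA_01G122300 (chromosome 1, 42016310 to 42020295) stood at 3.88, 3.61 and 2.79 CPM in control and had 0 counts in every MSN library. Its 683 control counts make it at least 56.2-fold lower in MSN, with a floor of 12 counts over the group. This gene, counted among the falls above, reached the required sum only through control and had to differ, so it is described with no test. GLYMA_08G026900 fell from 2.14, 2.22 and 1.91 CPM to 0.875, 0.648 and 0.596 CPM (log2 fold change -1.56 ± 0.25, adjusted p = 2.63e-05). GLYMA_08G243600, named because it shares the KEGG entry of GLYMA_08G026900, fell from 67.4, 57.3 and 64.4 CPM to 22.2, 21.5 and 21.4 CPM (log2 fold change -1.54 ± 0.06, adjusted p = 1.2e-13). That entry carries the enzyme number of a beta-amyrin hydroxylase, a triterpene (saponin precursor) enzyme, so the pair carries a triterpene entry beside its brassinosteroid term. GLYMA_13G052900, chosen after its values were seen, had the largest fitted rise of the set, from 0.0308, 0.219 and 0.319 CPM to 1.38, 1.71 and 1.99 CPM (log2 fold change 3.14 ± 0.46, adjusted p = 9.67e-06).

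Brassinosteroid signalling held 38 genes, of which 13 rose, 16 fell and 9 did not pass, and 6 (15.8%, all rises) passed with at least 1 on the log2 scale. That share is near the 16.3% of all genes, and no signalling gene fell by that much. Of 12 kinases 3 rose, 5 fell and 4 did not pass, and 8 of them carry the KEGG entry of the brassinosteroid-signalling kinases, which relay the signal from the receptor. GLYMA_14G002400 stood at 54.6, 53.1 and 50.5 CPM in control and at 31.6, 35.6 and 34.4 CPM in MSN, without overlap (log2 fold change -0.64 ± 0.05, adjusted p = 9.38e-09). GLYMA_03G011000 fell from 31.6, 33.1 and 35.1 CPM to 23, 21.4 and 21.4 CPM (log2 fold change -0.60 ± 0.06, adjusted p = 9.62e-08). In the other direction, GLYMA_01G107900 rose from 3.22, 4.66 and 3.92 CPM to 9.32, 7.92 and 9.4 CPM (log2 fold change 1.17 ± 0.14, adjusted p = 1.29e-06). GLYMA_11G134000, described in the table as the kinase BSK5 by likeness to Arabidopsis, did not pass (log2 fold change 0.23 ± 0.14, adjusted p = 0.167).

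The protein phosphatases, the class that in Arabidopsis includes BSU1, which promotes the signal, fell in 5 of 5 genes by small amounts, with log2 fold changes from -0.34 to -0.14. In GLYMA_13G312300, at the larger end, control stood at 59.8, 57.9 and 57.3 CPM and MSN at 44.5, 46.8 and 47 CPM (adjusted p = 4.26e-06). The 2 transcription elongation regulators fell as well, GLYMA_09G209100 by 0.47 ± 0.04 and GLYMA_01G012500 by 0.39 ± 0.05 on the log2 scale. Of all genes tested 29.7% fell.

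Transcription factors of the brassinosteroid pathway held 3 rises, 4 falls and 4 that did not pass among 11 genes. Their share that passed was 63.6%, near the 59.3% of all genes. The rises were in genes of low level and the falls in genes of higher level. GLYMA_14G127400 (chromosome 14, 20399619 to 20401627) stood at 0.569, 0.483 and 0.531 CPM in control and at 2.18, 2.02 and 2.42 CPM in MSN, a 4.18-fold rise (log2 fold change 2.06 ± 0.25, adjusted p = 9.75e-07). GLYMA_12G231500 rose from 0.569, 0.512 and 0.82 CPM to 1.61, 1.55 and 1.62 CPM (log2 fold change 1.33 ± 0.28, adjusted p = 0.000513). Its neighbour GLYMA_12G231400 had a log2 fold change of -0.11 ± 0.07 and did not pass. The most abundant factors by FPKM, GLYMA_01G178000 and GLYMA_11G064300, fell slightly, by 0.22 ± 0.05 and 0.24 ± 0.04 on the log2 scale. GLYMA_01G178000 stood at 91.1, 93.7 and 103 CPM in control and at 80.5, 84.9 and 81.7 CPM in MSN (adjusted p = 0.000646), and GLYMA_11G064300 at 117, 110 and 114 CPM and at 92.1, 97.7 and 97.9 CPM (adjusted p = 5.24e-05). GLYMA_14G076900 fell from 8.66, 9.02 and 9.89 CPM to 5.54, 7.14 and 6.11 CPM (log2 fold change -0.55 ± 0.12, adjusted p = 0.000858).

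The serine carboxypeptidases, secreted-type proteases of which the Arabidopsis member BRS1 is tied to receptor signalling, rose in 4 of 4 genes, with log2 fold changes from 0.60 to 1.10. GLYMA_17G073200 (chromosome 17, 5720584 to 5728156) stood at 15, 14.7 and 16 CPM in control and at 33.5, 30.7 and 33.5 CPM in MSN, a 2.14-fold rise (log2 fold change 1.10 ± 0.06, adjusted p = 4.4e-11). In all 4 genes every MSN library was above every control library. Of all genes tested 29.6% rose and 65% had groups that did not overlap. Both GTP-binding genes rose, GLYMA_19G133900 by 1.14 ± 0.32 and GLYMA_03G132000 by 0.37 ± 0.07 on the log2 scale. Of 2 peptidyl-prolyl isomerases, which help proteins fold, 1 rose and 1 did not pass.

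Few other brassinosteroid genes could be set beside the list. The only gene with the term response to brassinosteroid had a log2 fold change of 0.03 and did not pass, and neither did the only gene for regulation of the signalling pathway, at 0.14. Of 3 genes of brassinosteroid metabolism, all on the list, 1 rose (GLYMA_06G215200, given above). The KEGG map of plant hormone signal transduction covers all hormones and holds 22 of the 140 genes. Across it 104 of 385 tested genes rose (27%) and 152 fell (39.5%), against 29.6% and 29.7% of all genes tested.

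**Figure D5:**
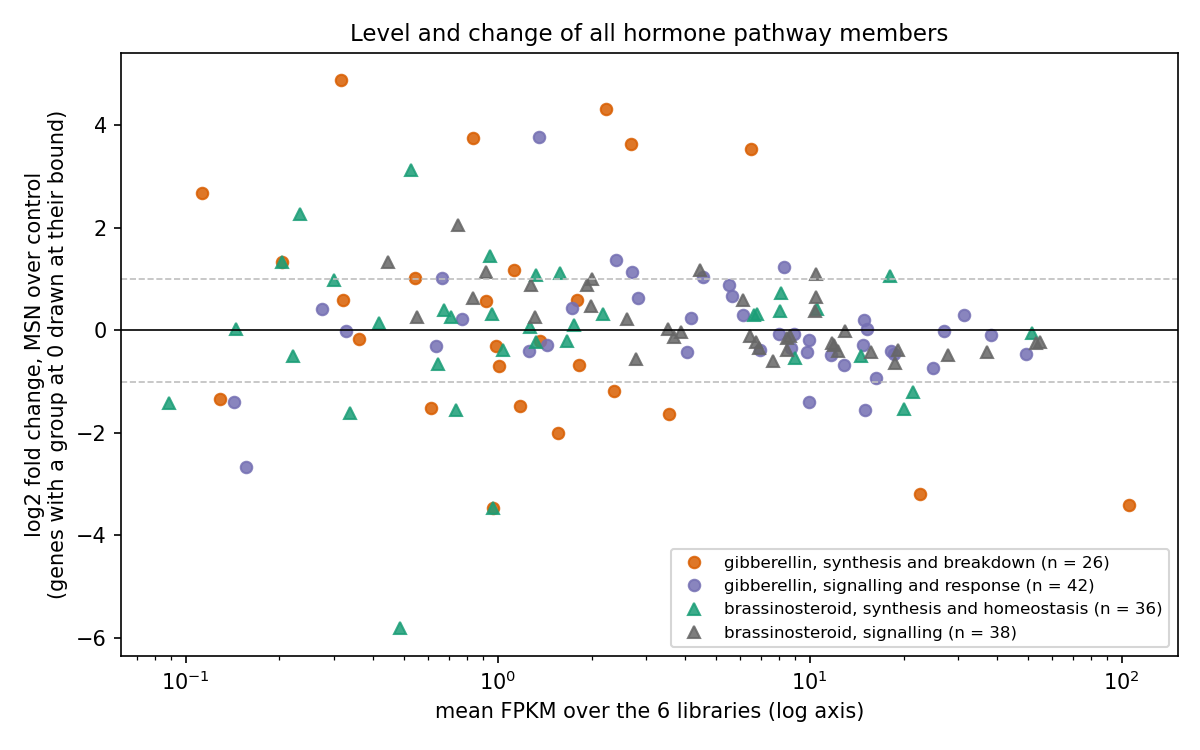
Log2 fold change (MSN over control, genes with a group at 0 at their bound) against mean FPKM over the 6 libraries (log axis) for each gene of the 4 classes. Changes beyond 1 in size lie mostly under 5 FPKM, with the homoterpene-type pair at the lower right.

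Synthesis genes of both hormones were expressed at lower levels than signalling genes. The median level was 1.07 FPKM for gibberellin synthesis and breakdown, 7.45 FPKM for gibberellin signalling, 1.15 FPKM for brassinosteroid synthesis and 6.83 FPKM for brassinosteroid signalling, and 4.54 FPKM over all genes tested. Among genes under 5 FPKM, 10 of 25 (40%) brassinosteroid synthesis genes passed with at least 1 on the log2 scale. The count was 6 of 17 (35.3%) in gibberellin signalling and 5 of 16 (31.2%) in brassinosteroid signalling, against 22.5% of all such genes. The gibberellin signalling count includes GLYMA_14G009000 and GLYMA_08G366900, and the brassinosteroid synthesis count includes GLYMA_01G122300. These genes reached the required sum only through their higher group and had to differ. The shares of those classes thus describe the measured genes and support no excess over all genes by themselves.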

How the data were processed

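Per the file headers, the authors deposited whole-number counts and FPKM values (the authors' normalisation by gene length and library total) for 45967 genes in 6 libraries. The aligner, counter, genome build, annotation release and use of strand are not stated in the sources used here, and coordinates are those of the table. The submitters' processing notes list DESeq2 1.34.0 and R 4.1.2. GO cells of 114 genes, 3 of them members, and KEGG cells of 11 genes were not analysed here.

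Counts were tested with edgeR 4.0.16 (R 4.3.3; glmQLFit and glmQLFTest, TMM, filterByExpr), 2-sided. P-values were adjusted by Benjamini-Hochberg over all 39203 tested genes. All 140 members were tested. CPM is TMM-scaled, and standard errors come from the F statistic. Roles come from GO and KEGG terms, since 139 members are described only as hypothetical proteins. Members, lists and roles were chosen with earlier results of these data known.

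Named genes are, per class, up to 3 rises and 3 falls of largest fold change that passed with groups apart and at least 1 CPM on average, the 2 of highest FPKM, genes of both hormones, and enzyme steps by count and range. Others serve as examples within a role and were chosen after their values were seen.

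Among counts of 1 to 12 the value 4 took 17.7 to 19% and 8 took 10 to 12.3%, so 1 counting event was taken as 4 counts, an assumption. A count of 0 over a group then allows 12 counts (0.0602 CPM in control, 0.061 CPM in MSN). Intervals and floors cover counting error only. Pairs of replicates shared 0.6 to 0.759% of counts exactly, so none was a copy. Labels give 1 batch value for all libraries.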

Additional observations from a re-analysis of the deposited data

How the results depend on the processing

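Alternatives were RLE and upper quartile scaling, no filter, DESeq2 1.42.0, limma 3.58.1 on log2 FPKM (pseudocounts 1 and 0.1), quantile normalisation, leaving out each library, and other membership rules. All 264 counts of calls computed under them stayed within 1.5 times their value. Gibberellin rises ran from 19 to 26 and falls from 22 to 28, and brassinosteroid rises from 19 to 26 and falls from 22 to 26. The 20-oxidases had 3 rises in every fit, 1 of them the gene that reached the sum only through MSN, and the 2-oxidases had 5 to 7 falls. Of 420 values of named genes, 417 kept direction and call. GLYMA_08G224200 reversed to 0.02 under quantile normalisation (adjusted p = 0.684). Without MSN replicate 2, GLYMA_09G029400 lost its call, and GLYMA_05G062300 gained one (log2 fold change -0.11, adjusted p = 0.0456). The cause was not tested. The replicate numbers do not pair the samples: the correlation of deviations of same-numbered libraries was -0.003, 0.01 and 0.002. With the replicate block, gibberellin had 25 rises and 26 falls and brassinosteroid 25 rises and 24 falls. The median log2 fold change over all genes ran from -0.01 to 0.05 across settings. Genes below about 1 CPM rest on few counting events, so their fold changes are the least precise. Sharing of reads between close copies, as in 6 neighbouring pairs of members, could not be examined.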
